A study of Mus musculus with 24 samples.

Results

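Complement and coagulation factors are plasma proteins made mostly by hepatocytes. The genes described here are 39 named components of both systems, 16 of complement and 23 of coagulation and fibrinolysis, listed by gene symbol. The deposited table of 15160 genes holds 38 of them under these symbols, all 16 of complement and 22 of coagulation. Klkb1, plasma prekallikrein, was not matched by symbol and is given no value. All 38 had enough reads to be tested, with at least 9 reads in each mouse.

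Liver RNA was sequenced from male mice, 5 months old by the labels, after 8 weeks on a control diet (Con, 0.86% methionine) or a methionine-restricted diet (MR, 0.17% methionine) begun at 8 weeks of age, and a 4 h fast. By the study's methods, indirect calorimetry and a period back in the home cage followed those weeks before the tissue was taken. Both diets lacked cysteine. The mice labelled NRF2 KO carried floxed alleles of Nfe2l2, which encodes the transcription factor NRF2, and an Alb-cre transgene, whose albumin promoter is active in hepatocytes, so other liver cells keep the gene. The mice labelled NRF2 WT were littermates with the same floxed alleles and no Cre, on a C57BL/6 background. The comparisons ask how the restricted diet changes these genes in each genotype, and whether loss of hepatic NRF2 changes them or their response to the diet. Values are given for 22 mice, 5 WT Con, 5 WT MR, 6 KO Con and 6 KO MR; 2 further mice, WT_CON_7604 and WT_MR_7612, were left out as the study did.

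Complement is a cascade in which antibody-bound C1, or mannose-binding lectins with their MASP proteases, cleave C4 and C2. The resulting convertases cleave C3 and C5, and C5b then recruits C6, C7, C8 and C9 into a pore called the membrane attack complex. Coagulation is a second protease cascade that ends with thrombin cutting fibrinogen to fibrin, and plasmin later dissolves the clot. Liver disease lowers many of these proteins in plasma, and several of them belong to the acute phase response.

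Each library counted reads near the 3′ ends of transcripts, and levels are given as CPM, the reads of a gene scaled to a common effective library total. The 22 libraries held from 6197291 to 22068338 reads on genes. The summed CPM of 8 hepatocyte markers ran from 99108 to 160820, as in liver. The marker lists of pancreatic acinar cells, platelets, neutrophils and lymphocytes, each taken apart, summed to at most 87.6 CPM in any mouse. Nfe2l2 counts do not show the deletion directly here, since it removes a portion of 1 exon and reads at the 3′ end can lie outside it. The level still differed by genotype and was higher in KO. It was 94.0 to 125 CPM in 9 of the 10 WT mice and 202 to 339 CPM in the 12 KO mice. The library labelled WT_CON_7607 had 324 CPM, within the KO range and apart from the other WT mice. Whether its label or genotype is wrong was not tested. The counts of called members that rest on WT Con mice are therefore also given without that library, while the values of single mice and genes include it unless stated.

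MR lowered a large share of the complement genes and few of the coagulation genes. In WT mice 6 of 16 complement genes fell and 0 rose by the quasi-likelihood test of edgeR, with adjustment by Benjamini-Hochberg over 13336 genes, where 6.91% of all genes tested fell and 6.91% rose. In KO mice 11 of 16 fell and 0 rose, against 6.34% and 6.23% of all genes. Averaged over both genotypes, 11 fell and 1 rose, against 14.1% and 13.3% of all genes. The median log2 fold change over the 16 complement genes was -0.36 in WT and -0.43 in KO, beside -0.01 and -0.00 over all genes tested. All MR mice were below all Con mice for 6 of the 16 genes in WT and 6 in KO, a pattern shown by 4.00% and 2.83% of all genes. Without WT_CON_7607 the comparison in WT again gave 6 calls, with Mbl1 lost and Masp2 gained, and the average again gave 11 lower and 1 higher. With scaling by library size alone, 4 complement genes were called lower in WT, 7 in KO and 10 in the average, beside 1, 1 and 2 called higher, and the medians were -0.26, -0.28 and -0.28.

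**Figure D1:**
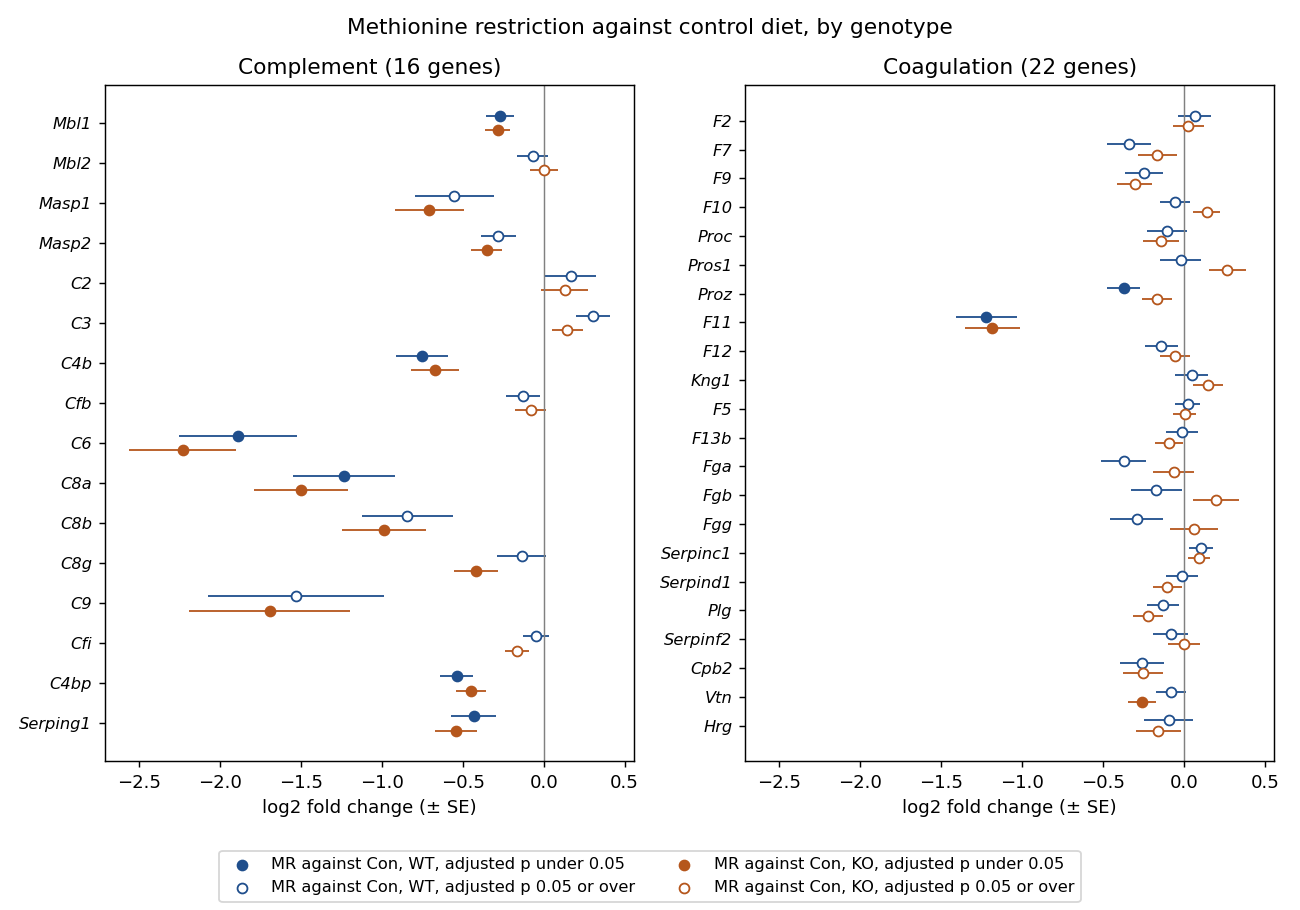
Log2 fold change (x axis, ± SE of the model) of MR against Con for each of the 16 complement and 22 coagulation genes (y axis, ordered by role), in WT (blue, 5 mice against 5) and KO (orange, 6 against 6). Filled points have an adjusted p under 0.05; C6, C8a, C9 and F11 lie farthest below 0 in both genotypes, and most coagulation genes lie close to 0.

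The terminal components assemble the membrane attack complex, and 4 of the 5 listed, C6, C8a, C8b and C9, had the lowest fold changes of the complement genes. Of the 5, 2 fell in WT and all 5 in KO. C8a and C8b are neighbours on chromosome 4, and C6 and C9 are both on chromosome 15. The promoters of the 4 terminal genes with the largest changes are printed with that of F11, the coagulation gene with the largest change, because all 5 fell with MR in the average over genotypes. Each sequence is the RefSeq promoter on GRCm38.p6, from 250 bases before to 50 bases after the start site, written 5′ to 3′ on the gene's strand, and capitals mark matches to the motifs described after the sequences.

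C6, chr15:4726960-4727259, plus strand: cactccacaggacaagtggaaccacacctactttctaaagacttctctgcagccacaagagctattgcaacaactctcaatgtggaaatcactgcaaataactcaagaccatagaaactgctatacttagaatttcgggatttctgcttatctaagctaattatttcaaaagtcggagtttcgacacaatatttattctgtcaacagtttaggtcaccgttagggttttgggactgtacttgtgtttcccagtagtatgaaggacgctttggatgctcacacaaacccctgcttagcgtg
C8a, chr4:104876349-104876648, minus strand: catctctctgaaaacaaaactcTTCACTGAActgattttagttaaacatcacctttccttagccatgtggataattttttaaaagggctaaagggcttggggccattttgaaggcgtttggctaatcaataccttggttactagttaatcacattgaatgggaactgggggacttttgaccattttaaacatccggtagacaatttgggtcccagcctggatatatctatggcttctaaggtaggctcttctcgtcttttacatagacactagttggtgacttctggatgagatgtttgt
C8b, chr4:104766067-104766366, plus strand: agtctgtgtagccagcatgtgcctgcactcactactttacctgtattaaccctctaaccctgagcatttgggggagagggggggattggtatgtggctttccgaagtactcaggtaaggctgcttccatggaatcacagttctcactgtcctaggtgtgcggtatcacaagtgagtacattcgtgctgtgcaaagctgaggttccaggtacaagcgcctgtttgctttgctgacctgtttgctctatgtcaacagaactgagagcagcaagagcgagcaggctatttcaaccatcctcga
C9, chr15:6445096-6445395, plus strand: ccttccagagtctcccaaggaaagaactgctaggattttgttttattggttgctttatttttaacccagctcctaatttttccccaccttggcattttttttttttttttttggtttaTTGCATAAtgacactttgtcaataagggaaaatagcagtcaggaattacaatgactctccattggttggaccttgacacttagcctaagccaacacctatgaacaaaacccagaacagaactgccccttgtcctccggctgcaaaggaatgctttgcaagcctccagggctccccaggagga
F11, chr8:45261982-45262281, minus strand: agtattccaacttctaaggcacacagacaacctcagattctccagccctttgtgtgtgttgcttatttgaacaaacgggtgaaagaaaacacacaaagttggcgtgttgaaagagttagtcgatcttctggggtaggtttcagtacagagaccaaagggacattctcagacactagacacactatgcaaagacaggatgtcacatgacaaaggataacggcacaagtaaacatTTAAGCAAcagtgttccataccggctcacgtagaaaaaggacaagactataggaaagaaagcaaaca

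Both strands were searched for 6 motifs: the NRF2 antioxidant response core TGACNNNGC, the ATF4 amino acid response core TGATGNAA, the STAT site TTCNNNGAA, the HNF1 sequence GTTAATNAT, the HNF4 sequence CAAAGTCCA and the C/EBP core TTGCNNAA. In the 5 printed promoters the matches were 1 STAT sequence in C8a, 228 to 220 bases before the start site, and a C/EBP core in C9 and in F11. These letters occurred in 12.4% (NRF2), 3.97% (ATF4), 8.3% (STAT), 0.801% (HNF1), 0.475% (HNF4) and 10.8% (C/EBP) of the 32851 promoters in the reference table. That table held promoters for 30 of the listed members. Among 11 complement promoters, 1 held the NRF2 letters (Mbl1), 2 the STAT letters (C8a and Masp2), 2 the C/EBP core (C3 and C9) and 1 the HNF1 letters (C4bp). Among 20 coagulation promoters, 8 held the C/EBP core, 5 the STAT letters, 2 the NRF2 letters, 2 the HNF1 letters and 1 the ATF4 letters, and no promoter of a member held the HNF4 letters. The matches describe these windows only.

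C6 (chr15:4727175-4814967), which binds C5b and starts the pore, had the largest fall of all members. In WT Con mice it measured 99.9, 54.1, 108.7, 128.7 and 117.1 CPM, and in WT MR mice 21.4, 22.3, 51.1, 14.6 and 27.5 CPM. In KO Con mice its level ran from 72.1 to 219 CPM with a median of 120 CPM, and in KO MR mice from 16.9 to 44.8 CPM with a median of 27.0 CPM. The diets did not overlap in either genotype, and the lowest WT Con mouse was only just above the highest WT MR mouse. The log2 fold change was -1.89 ± 0.36 (SE) in WT and -2.23 ± 0.33 in KO (edgeR adjusted p = 0.00217 and 0.00034), which is a fall of 73.0% and 78.7%.

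C8 is a complex of 3 chains, of which the alpha and beta chains insert into the membrane. C8a (chr4:104815679-104876398), the alpha chain, measured 351, 269, 352, 305 and 254 CPM in WT Con mice and 66.1, 142.7, 246.6, 72.0 and 124.1 CPM in WT MR mice. In KO it ran from 293 to 455 CPM on Con (median 402) and from 102 to 257 CPM on MR (median 109). The diets did not overlap in either genotype, and WT_MR_7613 and KO_MR_7632 came closest. C8a fell by 57.4% in WT and by 64.6% in KO, with a log2 fold change of -1.23 ± 0.31 in WT and an SE of 0.29 in KO (edgeR adjusted p = 0.0138 and 0.00237).

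C8b (chr4:104766317-104804548), the beta chain, averaged 297.7 ± 70.5 CPM (SD, n = 5) in WT Con and 166 ± 82.5 CPM in WT MR. The log2 fold change in WT was -0.84 ± 0.28, and the edgeR adjusted p of 0.0527 missed the threshold of 0.05. In KO, C8b went from 356 ± 78.7 CPM (n = 6) to 179.9 ± 53.4 CPM, a log2 fold change of -0.99 ± 0.26 (edgeR adjusted p = 0.0167). The KO diets were separated by a narrow gap, with the highest MR mouse at 272.35 CPM and the lowest Con mouse at 272.42 CPM. C8g, the small secreted gamma chain, had smaller values, with -0.14 ± 0.15 in WT (adjusted p = 0.595) and -0.42 ± 0.14 in KO (adjusted p = 0.0436), and its diets overlapped in both genotypes.

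C9 (chr15:6445327-6498751), whose copies polymerise to complete the pore, had the largest standard error of the members. In WT Con it measured 429, 252, 474, 269 and 325 CPM, and in WT MR 21.4, 160.2, 238.3, 25.0 and 159.6 CPM. All WT MR mice lay below all WT Con mice, but the WT MR mice were widely spread, and the log2 fold change of -1.53 ± 0.54 did not pass (edgeR adjusted p = 0.0687). In KO the level ran from 194 to 481 CPM on Con and from 45.7 to 224 CPM on MR, where KO_MR_7632 was above the lowest Con mouse, and the log2 fold change of -1.69 ± 0.50 passed (adjusted p = 0.0324). The fall averaged over genotypes was 1.61 ± 0.37 on the log2 scale (adjusted p = 0.00334).

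The same mice were low or high for several terminal components. Within WT MR, the mice WT_MR_7609 and WT_MR_7615 had the lowest C8a, C8b and C9, and WT_MR_7613 had the highest level of C6, C8a, C8b and C9. This order was not particular to the terminal components. The same mice were also lowest for C4b, Serping1, C4bp, Mbl1, Fga, Fgb and Fgg, and WT_MR_7613 was highest for these except Mbl1. Not all members followed it, since C3 was highest in WT_MR_7609. Within KO MR, KO_MR_7632 had the highest level of C6, C8a, C8b and C9. WT_MR_7615 also had the fewest reads of the 22 mice, 6197291.

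**Figure D2:**
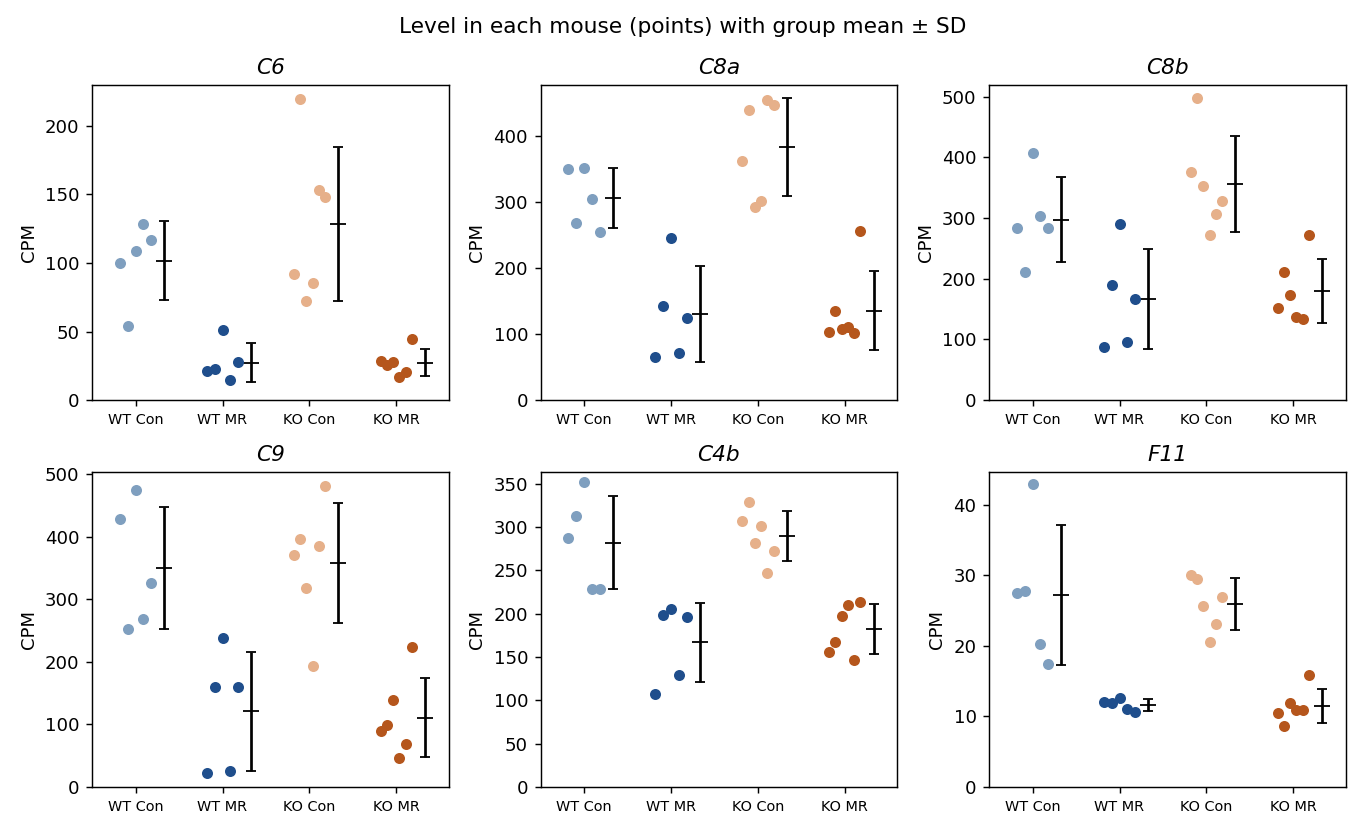
Level in CPM (y axis, from 0) of 6 members in each mouse (points), by group (x axis: 5 WT Con, 5 WT MR, 6 KO Con, 6 KO MR), with the group mean ± SD beside them. For C6, C8a, C4b and F11 the MR mice lie lower than all Con mice of the same genotype; the MR mice of C8a, C8b and C9 are widely spread.

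Among the components of the C3 convertases, 1 fell in each genotype and the other 3 passed in neither. C4b (chr17:34728380-34743882), the substrate shared by the classical and lectin pathways, measured 287, 313, 352, 229 and 228 CPM in WT Con and 107, 198, 206, 129 and 196 CPM in WT MR. In KO its level was 247 to 329 CPM on Con and 147 to 214 CPM on MR, again without overlap. It fell by 0.75 ± 0.16 on the log2 scale in WT and by 0.67 ± 0.15 in KO (edgeR adjusted p = 0.00353 and 0.00448). The table also lists C4a, a near-identical neighbour named here by its Ensembl identifier, at much lower counts (4 to 191 reads in a WT mouse), and it fell by 1.97 ± 0.47 in WT and 2.28 ± 0.42 in KO. How reads common to C4a and C4b were divided is not given in the sources used here, so the split between them is uncertain.

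C3, the central protein of all pathways, was the single complement member with a call upward. It averaged 2187 ± 302 CPM in WT Con and 2702 ± 114 CPM in WT MR, with a log2 fold change of 0.30 ± 0.11 in WT (edgeR adjusted p = 0.0537) and 0.14 ± 0.10 in KO (adjusted p = 0.352). Averaged over genotypes it rose by 0.22 ± 0.07 (adjusted p = 0.0207). In WT, C3 was called higher with scaling by library size alone, DESeq2's test, limma and all 24 mice (adjusted p = 0.0136, 0.0229, 0.0446 and 0.0335) and without WT_CON_7602, KO_CON_7621 or KO_MR_7632, within a range of 0.0136 to 0.141 over all alternatives. In KO it was called with library size alone (0.29, adjusted p = 0.0335). C2, the protease of the classical convertase, had 0.17 ± 0.16 and 0.13 ± 0.14, and Cfb, its counterpart in the alternative pathway, had -0.13 ± 0.11 and -0.08 ± 0.10. Neither passed in any diet comparison, but with scaling by library size alone C2 was called higher in the average (0.28, adjusted p = 0.018). A predicted read-through gene, Gm20547, overlaps both C2 and Cfb on the same strand.

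The lectin pathway recognises sugars on microbes. Mbl1 (chr14:41151458-41159601), a mannose-binding lectin, fell by a small amount in both genotypes, by 0.27 ± 0.09 on the log2 scale in WT and 0.28 ± 0.08 in KO (edgeR adjusted p = 0.0387 and 0.019). Its WT Con mice measured 179, 163, 180, 169 and 164 CPM and its WT MR mice 126, 155, 154, 122 and 151 CPM, with no overlap. Mbl2, the second lectin, had -0.07 ± 0.10 in WT and 0.00 ± 0.09 in KO and passed in neither. The proteases bound to the lectins were called in KO: Masp1 with -0.71 ± 0.21 and Masp2 with -0.35 ± 0.10 (adjusted p = 0.0297 and 0.0188), beside -0.55 ± 0.25 and -0.28 ± 0.11 in WT (adjusted p = 0.137 and 0.0805). Masp1 was a gene of few reads, at 1.12 to 3.67 CPM, and the 3′ end of Masp2 overlaps that of Tardbp on the other strand, where Tardbp had -0.04 ± 0.15 and 0.17 ± 0.14.

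Of the 3 regulators, C4bp and Serping1 fell in both genotypes. C4bp (chr1:130634773-130661632), which inactivates C4b together with factor I, measured 372, 409, 427, 357 and 313 CPM in WT Con and 232, 280, 296, 219 and 266 CPM in WT MR. It fell by 0.54 ± 0.10 on the log2 scale in WT and 0.45 ± 0.09 in KO (edgeR adjusted p = 0.0012 and 0.00276), with no overlap of the diets in either genotype. Serping1, the C1 inhibitor, fell by 0.43 ± 0.14 in WT and 0.54 ± 0.13 in KO (adjusted p = 0.0391 and 0.00675), and its diets overlapped in WT and not in KO. Cfi, factor I itself, had -0.05 ± 0.08 and -0.17 ± 0.08 and did not pass.

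Across both genotypes, 15 of the 16 complement genes had the same sign of change with MR, and 6 were called in each: C4b, C4bp, C6, C8a, Mbl1 and Serping1. The other 5 calls, for C8b, C8g, C9, Masp1 and Masp2, passed in KO and not in WT. The difference between the genotypes was tested as an interaction and was called for 0 of 16 (lowest adjusted p = 0.784; 0 at an unadjusted p under 0.05), so a genotype difference was not shown for them. The KO calls of C8g, C9, Masp1 and Masp2 and the WT calls of Mbl1 and Serping1 were each lost when 1 of several single mice was left out, while those of C4b, C4bp, C6 and C8a were kept without any 1 mouse. The averaged call of C8g was lost in 14 of 22 fits without 1 mouse. It was also lost in 3 of 7 other alternatives: library size alone, limma and all 24 mice.

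Coagulation genes changed little with MR. Of 22 genes, 2 fell in WT and 2 in KO and 0 rose, shares near those of all genes given above, and the median log2 fold changes were -0.10 and -0.08. Averaged over genotypes, 6 (27.3%) fell and 0 rose, against 14.1% and 13.3% of all genes: F7, F9, Proz, F11, Cpb2 and Vtn. The averaged calls of F7, Cpb2 and Vtn were lost in 13, 10 and 15 of the 22 fits without 1 mouse. Of 7 other alternatives, 3 lost the call of F7, 1 that of Cpb2 and 5 that of Vtn. Without WT_CON_7607 the counts were 3 in WT, 3 in KO and 7 averaged, with F9 gained in WT and in KO and Plg in the average. Scaling by library size alone turned the median of the 22 genes upward, to 0.01 in WT and 0.08 in KO, and left F11 as the sole fall in WT, in KO and in the average, so the direction of the small changes depends on the scaling. Under that scaling 1 gene was called higher in WT, 4 in KO and 6 in the average, the last being F2, F5, F10, Kng1, Pros1 and Serpinc1.

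F11 (chr8:45241174-45262031), factor XI, links the contact system to thrombin generation and was the exception. It measured 27.5, 27.8, 43.0, 20.3 and 17.4 CPM in WT Con and 12.1, 11.8, 12.6, 11 and 10.6 CPM in WT MR. In KO it ran from 20.5 to 30.1 CPM on Con (median 26.3) and from 8.65 to 15.9 CPM on MR (median 10.9). The diets did not overlap in either genotype, and the WT MR mice were closely grouped. The log2 fold change was -1.22 ± 0.19 in WT and -1.18 ± 0.17 in KO (edgeR adjusted p = 0.000197 and 0.000127), a fall of 57.1% and 55.9%. F11 was the sole coagulation gene with no overlap of the diets, in WT and in KO. F12 and Kng1, factor XII and kininogen, stand with it in the contact system and had -0.14 ± 0.10 and 0.05 ± 0.10 in WT and -0.05 ± 0.09 and 0.15 ± 0.09 in KO, with no call. A second kininogen gene, Kng2, is nearly identical to Kng1, so the division of reads between them is uncertain.

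The vitamin K-dependent proteins are proteases and cofactors that vitamin K-dependent carboxylation lets bind to membranes. Proz, protein Z, a cofactor for the inhibition of factor Xa, measured 46.3, 49.5, 66.7, 42.8 and 46.9 CPM in WT Con and 37.7, 44.4, 34.6, 37.8 and 40.4 CPM in WT MR. It fell by 0.37 ± 0.10 on the log2 scale in WT (edgeR adjusted p = 0.0171) and had -0.16 ± 0.09 in KO (adjusted p = 0.261). The WT call was lost without WT_CON_7605, the highest Con mouse, where the log2 fold change was -0.25, and also without WT_MR_7613.

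F7 and F9, the factors VII and IX that activate factor X, passed in neither genotype alone in the main fit. Averaged over genotypes they fell by 0.25 ± 0.09 and 0.28 ± 0.08 on the log2 scale (edgeR adjusted p = 0.0411 and 0.0126). Without WT_CON_7607, F9 was called lower in WT (-0.34, edgeR adjusted p = 0.0419) and in KO (-0.30, adjusted p = 0.0325). F9 in KO was also called with the compared groups alone (edgeR adjusted p = 0.0191). F2 (prothrombin), F10 (factor X), Proc (protein C) and Pros1 (protein S) passed in no diet comparison, with log2 fold changes between -0.14 and 0.27. The highest was Pros1 in KO (0.27 ± 0.12, edgeR adjusted p = 0.13). It was called higher there without KO_CON_7622, without KO_CON_7623 and with library size alone (edgeR adjusted p = 0.0141, 0.0497 and 0.0173). The cofactor F5 and the carrier subunit F13b had values between -0.09 and 0.02.

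Fibrinogen is built from 3 chains encoded side by side on chromosome 3. Fga averaged 1708 ± 220 CPM in WT Con and 1319 ± 226 CPM in WT MR, and 1731 ± 167 and 1657 ± 375 CPM in KO. Its log2 fold change was -0.37 ± 0.14 in WT (edgeR adjusted p = 0.0777) and -0.06 ± 0.13 in KO (adjusted p = 0.802). Fgb had -0.17 ± 0.16 and 0.20 ± 0.14, and Fgg had -0.29 ± 0.16 and 0.06 ± 0.15, with no call. The point estimates thus lay below 0 for all 3 chains in WT and for Fga alone in KO. The interaction estimates were 0.31 ± 0.19, 0.37 ± 0.21 and 0.35 ± 0.22 for Fga, Fgb and Fgg, and none passed (adjusted p = 0.74, 0.727 and 0.741).

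**Figure D3:**
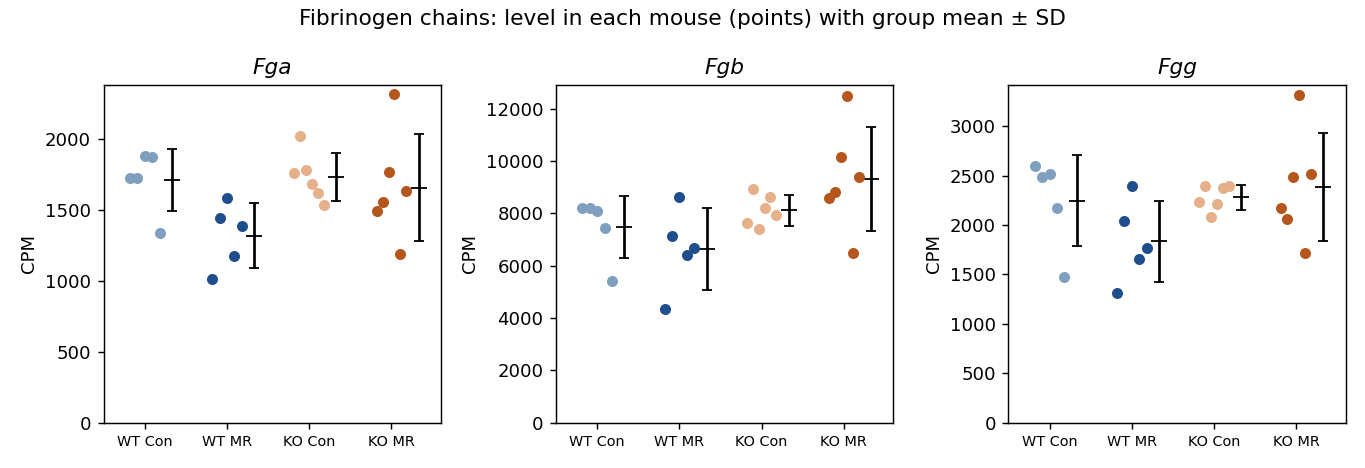
Level in CPM (y axis, from 0) of the 3 fibrinogen chains in each mouse (points), by group (x axis: 5 WT Con, 5 WT MR, 6 KO Con, 6 KO MR), with the group mean ± SD beside them. The KO MR mice are the most widely spread group, with Fgb from 6470 to 12492 CPM, and all groups overlap.

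The inhibitors and the genes of fibrinolysis stayed within small ranges. Serpinc1 (antithrombin) and Serpind1 (heparin cofactor II) had log2 fold changes between -0.10 and 0.10, and the 3′ end of Serpinc1 overlaps Zbtb37 on the other strand. Plg (plasminogen), Serpinf2 (its inhibitor antiplasmin) and Cpb2, a carboxypeptidase that protects fibrin, had between -0.26 and -0.00, and Cpb2 was called in the average with -0.25 ± 0.09 (edgeR adjusted p = 0.0385). Plg in the average had -0.18 (edgeR adjusted p = 0.0569). It was called lower under several alternatives, among them without WT_CON_7607 (-0.19, edgeR adjusted p = 0.0411). Vtn, vitronectin, which binds both the terminal complement complex and the plasminogen activator inhibitor, fell in KO by 0.26 ± 0.08 on the log2 scale (adjusted p = 0.0459) and had -0.08 ± 0.09 in WT (adjusted p = 0.614). The KO call was lost without any 1 of 12 single mice, with scaling by library size alone, with all genes with a count and with all 24 mice. Its KO mice ran from 1514 to 1820 CPM on Con and from 1292 to 1664 CPM on MR. Hrg, histidine-rich glycoprotein, had -0.09 ± 0.15 and -0.16 ± 0.14 and did not pass.

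Loss of hepatic NRF2 gave no call among the 38 members. On the Con diet 0 of 38 passed by edgeR's quasi-likelihood test, where 2.07% of all genes did, and 3 members had an unadjusted p under 0.05 (7.89%, against 14.4% of all genes). On the MR diet 0 of 38 passed, where 1.93% of all genes did, and 6 had an unadjusted p under 0.05 (15.8%, against 13.9%). Those 6 were 1 of 16 complement genes (6.25%) and 5 of 22 coagulation genes (22.7%), the 3 fibrinogen chains among them. On Con the counts were 1 complement gene (6.25%) and 2 coagulation genes (9.09%). The estimates ran from -0.13 to 0.33 on Con and from -0.41 to 0.49 on MR. The interaction of genotype and diet was called for 0 of 38, against 0.0450% of all genes, and 0 had an unadjusted p under 0.05, against 7.56%. Without WT_CON_7607 the comparison on Con and the interaction again gave 0 of 38, and the estimates on Con ran from -0.23 to 0.43 (lowest adjusted p = 0.241).

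The member nearest to a call between genotypes was Fgb, the beta chain of fibrinogen. On MR it averaged 6639 CPM in WT and 9310 CPM in KO, with SDs of 1551 and 1983, a log2 fold change of 0.49 ± 0.15 (edgeR adjusted p = 0.0968). It was called with DESeq2's test (adjusted p = 0.0433), with scaling by library size alone (adjusted p = 0.0407) and without KO_MR_7631 (adjusted p = 0.0401), within a range of 0.0401 to 0.245 over all alternatives. Fga and Fgg had 0.33 ± 0.14 and 0.38 ± 0.16 in the same comparison (edgeR adjusted p = 0.255 and 0.266). The WT and KO mice on MR overlapped for Fga, Fgb and Fgg. C8g had the lowest value on MR, -0.41 ± 0.14 (adjusted p = 0.149).

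**Figure D4:**
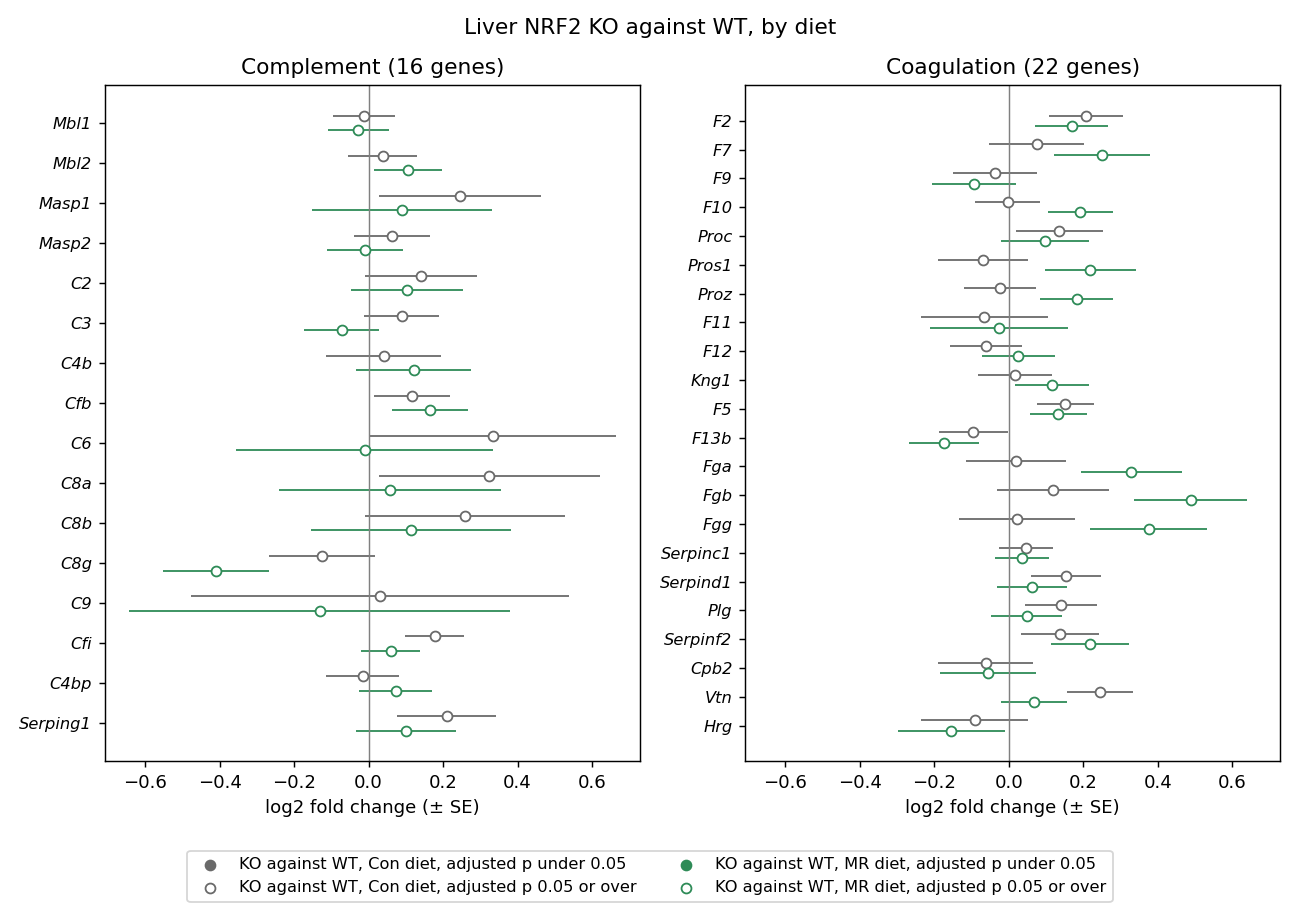
Log2 fold change (x axis, ± SE of the model) of KO against WT for the same 16 complement and 22 coagulation genes (y axis), on the Con diet (grey, 6 mice against 5) and on the MR diet (green, 6 against 5). All points are open, since none had an adjusted p under 0.05; Fgb on MR lies farthest to the right, at 0.49.

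Other complement genes were read from a wider list of 35, of which 29 were in the table and 28 were tested. MR lowered 9 of them in WT (32.1%) and 8 in KO (28.6%) and raised 0, where 6.91% of all genes fell in WT and 6.34% in KO. Besides C4a, the falls included Clu, or clusterin, which keeps terminal complexes soluble (-0.59 ± 0.12 in WT and -0.68 ± 0.11 in KO), and C1s1, a protease of C1 (-0.41 ± 0.11 and -0.65 ± 0.10). Hc, which encodes C5, the first terminal component, fell by 0.30 ± 0.10 in WT and 0.35 ± 0.09 in KO. The 3 chains of C1q, made by macrophages, also fell, with C1qa at -0.52 ± 0.10 in WT and -0.36 ± 0.09 in KO. Between genotypes 0 of the 28 were called on either diet, where 2.07% of all genes were on Con and 1.93% on MR.

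Markers of other cells moved with the diet too. Shares of each list called lower stand in parentheses, where 6.91% of all genes fell in WT and 6.34% in KO. Of 8 Kupffer cell markers, 4 fell in WT (50.0%) and 1 in KO (12.5%). Their summed level ran from 331 to 459 CPM in WT Con, 270 to 304 in WT MR, 292 to 444 in KO Con and 252 to 338 in KO MR. Of 8 stellate cell markers 5 fell in WT (62.5%) and 4 in KO (50.0%). Of 5 tested bile duct markers 4 fell in WT (80.0%) and 1 in KO (20.0%), and of 8 endothelial markers 0 fell in either. The hepatocyte markers summed to 105210 to 141320 CPM in WT Con, 99108 to 116150 in WT MR, 138730 to 160820 in KO Con and 122990 to 144950 in KO MR. Of these 8 markers, 1 fell in WT (12.5%) and 3 in KO (37.5%). Averaged over genotypes, 5 fell (62.5%) and 1 rose (12.5%). The averaged shares were 68.8% and 6.25% of the complement members, and 14.1% and 13.3% of all genes. The median log2 fold change of the hepatocyte markers was -0.29 in WT and -0.34 in KO, beside -0.36 and -0.43 over the 16 complement members. In whole liver, fewer cells of a type and less RNA per cell cannot be told apart, and the part of these shifts in the falls of C1q and of the members was not tested.

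In a wider list of 34 coagulation genes, 29 were in the table and 25 were tested. With MR, 4.0% were called lower and 4.0% higher in WT, and 8.0% lower and 0.0% higher in KO. The shares of all genes were 6.91% and 6.91% in WT and 6.34% and 6.23% in KO. In WT, Vkorc1, the enzyme that recycles vitamin K, rose by 0.40 ± 0.08 (edgeR adjusted p = 0.00129) and Plgrkt, a plasminogen receptor, fell by 0.47 ± 0.13. In KO, Serpine2 and Procr, a thrombin inhibitor and the protein C receptor, fell by 1.53 ± 0.45 and 0.75 ± 0.23, both from levels of a few CPM. Habp2, a protease that can activate factor VII, was higher in KO than in WT on MR by 0.32 ± 0.09 (adjusted p = 0.0485).

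Among 18 acute phase genes, which are induced in hepatocytes by inflammatory cytokines, 7 fell (38.9%) and 3 rose (16.7%) with MR in each genotype. Of all genes, 6.91% fell and 6.91% rose in WT, and 6.34% fell and 6.23% rose in KO. Orm3, an orosomucoid, fell by 3.45 ± 0.85 in WT and 3.57 ± 0.90 in KO, while Apcs, serum amyloid P, rose by 1.25 ± 0.36 and 1.22 ± 0.33. Without WT_CON_7607 the counts in WT were 7 and 1, and Apcs in WT was no longer called (adjusted p = 0.0593). Of 15 liver transcription factors, 1 rose in WT (Esrra, 0.42 ± 0.10) and 1 fell in KO (Cebpa, which encodes C/EBP alpha, -0.47 ± 0.10). Each was 6.67% of that list, near the 6.91% of all genes that rose in WT and the 6.34% that fell in KO. Foxa3, Nr1h4 and Esrra were higher in KO than in WT on the Con diet, by 0.71 ± 0.17, 0.48 ± 0.09 and 0.45 ± 0.09, and without WT_CON_7607 by 0.83, 0.43 and 0.46, all still called. They were 20.0% of that list, where 0.802% of all genes were called higher.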

How the data were processed

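The raw values are read counts per gene, deposited by the authors for 24 QuantSeq 3′ libraries, 1 per mouse. The deposited normalized signal is each count over a size factor, 1 per mouse; it equalled count over factor within a relative 5.2e-15. The submitters' processing notes name GRCm38 and mm10, R 3.4.3 and DESeq2 1.18.1. The aligner, the annotation and the strand setting are not given in the sources used here. Gene symbols were the table's, positions were GENCODE M21, and promoters were RefSeq.

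Members and lists were chosen with earlier results of these data known. Counts of 22 mice were fitted in 1 edgeR 4.0.16 model (R 4.3.3) with 4 group means, TMM scaling, the filter by expression (13336 of 15160 genes kept) and robust quasi-likelihood tests, calling genes whose p, adjusted by Benjamini-Hochberg over all genes tested, was under 0.05. Contrasts were MR against Con in each genotype and averaged, KO against WT on each diet, and the interaction. SDs are between mice; with 1 library per mouse no technical error was measured, and p-values treat mice as independent. Depth was 6197291 to 22068338 counts. The procedure was tested on simulated data. Every member is accounted for, and members called in a contrast are named with their values. Of other lists, at most the 5 largest called changes were to be named, but more are named from the wider complement list. Of 3 listed genes without a symbol in the table, names came from GENCODE M21, C4a among them. Gm20547, Gm45753, Tardbp and Zbtb37 were chosen after values were seen; Gm45753, a predicted gene overlapping the Klkb1 locus, was not counted as Klkb1. Alternatives were DESeq2 size factors, library size alone, all genes with a count, at least 10 counts in every mouse, the DESeq2 1.42.0 test, limma 3.58.1 on log2(deposited normalized value + 1), all 24 mice, the compared groups alone, and each mouse left out. Figures were drawn with matplotlib 3.10.9.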

Additional observations from a re-analysis of the deposited data

Results flagged for a closer look

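In 7 of 152 groups of mice (each member in each group), the highest or lowest mouse stood apart from the others by Dixon's criterion, which chance meets in about 1 in 20 groups. KO_MR_7632 was high for Masp2 (157.98 CPM, with the next mouse at 130.73 CPM) and for C8a (256.89 CPM, next 134.51 CPM). WT_CON_7605 was high for F7 (86.1 CPM, next 61.1 CPM) and Proz (66.7 CPM, next 49.5 CPM). KO_CON_7617 was high for F12 (490.62 CPM, next 399.23 CPM). WT_CON_7608 was low for 2 fibrinogen chains, Fga (1338 CPM, next 1724 CPM) and Fgb (5421 CPM, next 7440 CPM). Without WT_CON_7608 the fall of Fga with MR in WT was called.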

How the results depend on the processing

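Of 39 called values of single members, 24 remained called under every alternative and every left-out mouse, among them C4b, C6, C8a, C4bp and F11 in both genotypes, and 0 reversed. Library size alone lost 14 calls and all 24 mice lost 8. Library size alone moved the median of all genes to 0.09 (MR in WT), 0.15 (MR in KO) and 0.12 (averaged), and the share of calls that were higher from 50.0% to 73.2%, 49.6% to 86.1% and 48.5% to 79.7%; member changes are read relative to that shift. Its coagulation calls were 5 for MR in KO and 1 for KO on MR. With all 24 mice, and with all genes with a count, MR in KO gave 1 coagulation call; the compared groups alone gave 1 for MR in WT; DESeq2's test gave 1 for KO on MR. C8b and C9 in WT were called with DESeq2's test, limma and all 24 mice, with adjusted p from 0.00818 to 0.132 for C8b and 0.024 to 0.181 for C9 over all alternatives. Leaving out 1 mouse, complement calls ran from 7 (without KO_CON_7617) to 11 for MR in KO. For MR in WT, Mbl1 and Serping1 were both lost without WT_CON_7602, WT_CON_7605, WT_MR_7609 or WT_MR_7615, and C8b and C9 were both gained without WT_MR_7613. Coagulation calls ran from 1 (without WT_CON_7605 or WT_MR_7613) to 3 for MR in WT, from 1 to 4 (without KO_CON_7622) for MR in KO, from 3 to 8 averaged, and from 0 to 1 (without KO_MR_7631) for KO on MR. Without KO_CON_7622 the call of Pros1 for MR in KO was a rise. The 1 for MR in KO came without WT_CON_7602, WT_MR_7611, KO_CON_7617, KO_CON_7618, KO_CON_7620, KO_CON_7621, KO_MR_7625, KO_MR_7627, KO_MR_7628, KO_MR_7629 or KO_MR_7631, and the 3 averaged without WT_CON_7605, WT_MR_7609, WT_MR_7615, KO_CON_7617, KO_CON_7618, KO_CON_7620 or KO_MR_7631. The cause was not tested, apart from fewer mice or fewer genes in the fit. No paired analysis was possible because the groups share no replicate number. Genes of few reads such as Masp1 are limited by depth.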
